A study of Homo sapiens with 2 samples.

Results

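The genes described here are 7 human genes for the uptake and first use of glucose and amino acids: SLC2A1, SLC2A3, HK2, PFKFB3, SLC7A5, SLC1A5 and SLC38A1. They were followed in a map of sites bound by active YAP in MCF10A, a human mammary epithelial line that the labels call non-transformed in one field and a breast cancer line in another. The cells expressed Flag-YAP-5SA, a tagged form of the Hippo pathway co-activator YAP that LATS kinases cannot restrain, because alanines stand in place of their target serines. Their medium held horse serum, EGF, insulin, hydrocortisone and cholera toxin. Chromatin collected on Flag-M2 beads gave 1 ChIP library, and chromatin taken without the beads gave 1 input library, which was not analysed here. The labels do not state the vector that carried the transgene, its level relative to the cells' own YAP, or whether the line was 1 clone. The authors' list holds 9393 peaks on build hg19, and 14 of them have their summit in a window set around one of the 7 genes, from 120 to 200 kb wide. All values below rest on this single library of unknown read depth, with no replicate, so no p-value is given.

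YAP does not bind DNA by itself. It is brought to chromatin mainly by TEAD factors, which read the letters GGAATG, often beside sites of the AP-1 factors. Cells take up glucose through facilitative transporters such as those made from SLC2A1 (GLUT1) and SLC2A3 (GLUT3). Hexokinase, of which HK2 is one form, traps the sugar by phosphorylation, and PFKFB3 makes the metabolite that activates phosphofructokinase and so speeds glycolysis. SLC7A5 (LAT1) exchanges large neutral amino acids such as leucine across the membrane together with its partner SLC3A2. SLC1A5 (ASCT2) and SLC38A1 (SNAT1) carry neutral amino acids, among them glutamine.

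Peaks were found in the windows of 5 of the 7 genes. SLC7A5 had 5, PFKFB3 had 4, SLC2A1 and SLC38A1 had 2 each, SLC2A3 had 1, and HK2 and SLC1A5 had none. Of all stretches of these lengths laid end to end along the chromosomes, 58.3% (200 kb) to 71.2% (120 kb) held no peak. The genes of both nutrients were represented: the 4 glucose genes held 7 peaks in 630 kb, and the 3 amino acid transporters held 7 peaks in 480 kb. Together the windows held 12.6 peaks per Mb, against 3.45 per Mb in the rest of the list, a ratio of 3.66. Counting error alone on 14 peaks gives a 95% Poisson interval of 2.0 to 6.13 for this ratio. It treats peaks as independent and makes no allowance for peaks that lie close together, as 19.6% of the rest had another summit within 10 kb. Nor does the interval allow for the choice of genes and windows, which was made with earlier results of these data known. The same holds for the shares of stretches given for each gene. At the density of the rest, windows of the same length would hold 3.83 peaks. Most peaks came from a pair of genes: SLC7A5 and PFKFB3 supplied 9 of the 14, and without their windows the ratio was 1.91. No interval was computed for this lower ratio. It rests on few peaks, so it does not show an excess in the other windows. The rest of the list includes stretches without genes, and no other gene windows were compared, so whether the ratio is particular to nutrient uptake genes was not tested.

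**Figure D1:**
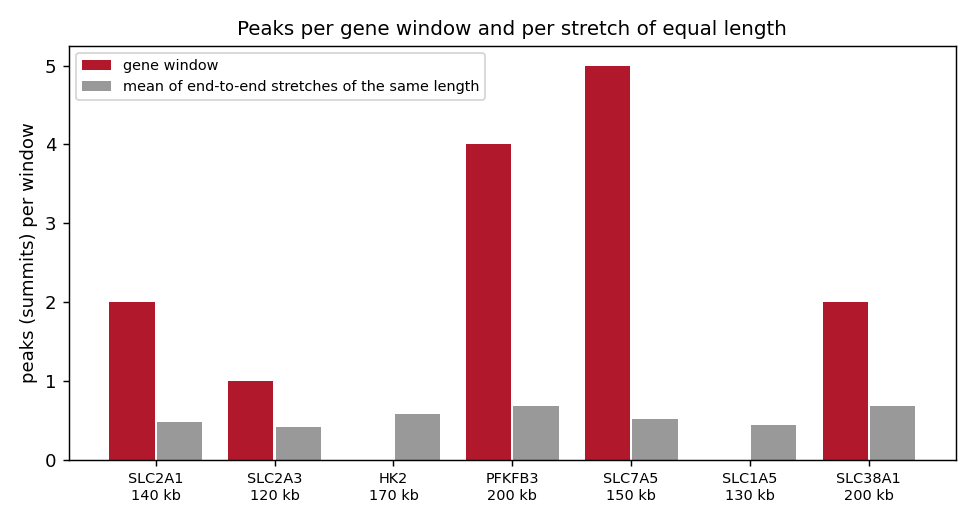
Number of peak summits in each gene window (red) beside the mean number in stretches of the same length laid end to end along all chromosomes (grey). SLC7A5 with 5 peaks and PFKFB3 with 4 stand highest above their grey bars, which are at 0.516 and 0.688, and HK2 and SLC1A5 have no red bar.

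The start regions of these genes were read for the letters that TEAD and AP-1 factors recognise. RefSeq promoters (GRCh38.p14, 250 bases before to 50 after each annotated start) were at hand for 6 of the 7 genes, 11 start sites in all, and none for SLC2A3. GGAATG, on either strand, was found in 2 of the 11, against 14.0% of 35116 promoters in the table. TGANTCA, the AP-1 letters, was found in 1 of the 11, against 7.71% of all promoters. These shares rest on 1 or 2 promoters. The 3 promoters with a match are printed below, in the direction of transcription, with the matched letters in capitals. They are shown because they are the only member promoters with either motif. On GRCh38, the promoter of the second PFKFB3 start spans chr10:6202682-6202981 on the plus strand. That of the third SLC1A5 start spans chr19:46784765-46785064, and that of the second SLC38A1 start chr12:46266467-46266766, both on the minus strand. Starts are numbered from the most upstream one. GGAATG begins 83 bases before the PFKFB3 start. CATTCC, the same letters on the other strand, begins 8 bases before the SLC1A5 start, and TGACTCA begins 57 bases before the SLC38A1 start.
PFKFB3, start 2: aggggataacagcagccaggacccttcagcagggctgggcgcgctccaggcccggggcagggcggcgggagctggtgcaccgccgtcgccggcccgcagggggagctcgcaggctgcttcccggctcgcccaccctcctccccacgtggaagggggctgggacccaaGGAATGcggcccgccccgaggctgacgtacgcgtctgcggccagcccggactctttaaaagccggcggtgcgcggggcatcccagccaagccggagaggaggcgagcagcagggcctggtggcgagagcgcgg
SLC1A5, start 3: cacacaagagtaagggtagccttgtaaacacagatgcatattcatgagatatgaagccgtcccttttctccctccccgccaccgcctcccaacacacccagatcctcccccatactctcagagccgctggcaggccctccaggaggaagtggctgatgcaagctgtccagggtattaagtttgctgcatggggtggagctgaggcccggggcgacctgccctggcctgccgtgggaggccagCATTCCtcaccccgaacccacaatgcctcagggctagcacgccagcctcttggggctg
SLC38A1, start 2: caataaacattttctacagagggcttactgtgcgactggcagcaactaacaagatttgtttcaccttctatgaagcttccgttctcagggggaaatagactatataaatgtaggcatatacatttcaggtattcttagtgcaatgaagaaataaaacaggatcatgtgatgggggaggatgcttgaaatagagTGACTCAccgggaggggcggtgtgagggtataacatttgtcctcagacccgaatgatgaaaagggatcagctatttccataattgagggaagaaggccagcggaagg
Of these 3 genes, SLC1A5 had no peak in its window, so a match in this list did not go with a peak in every case. The reverse also occurred: SLC7A5, with 5 peaks, and SLC2A1, with 2, had no match in the promoters read. HK2 had neither a match nor a peak. The peaks are on hg19 and these promoters on GRCh38, so neither was placed on the other, and whether a peak covers a printed sequence was not examined. The 11 promoters were rich in G and C, with a median of 71.0% and a range of 43.3% to 80.3%, against a median of 58.7% and an interquartile range of 47.0% to 68.0% over the whole table. The lowest value belonged to the second SLC38A1 start.

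Among the glucose transporters, SLC2A1 had 2 peaks in its 140 kb window, which runs from 43.34 to 43.48 Mb on chromosome 1. The first lay at chr1:43406513-43407125 and had a height of 26, where height is the authors' score at the summit, a whole number with no stated unit that runs from 9 to 100 in this list. The second lay 17.7 kb further on, at chr1:43424231-43424925, with a height of 17. The first was therefore slightly above the list's median of 24, and the second was among its lower peaks, with 83.8% of the list higher. Both lay near the middle of the window, 3.2 kb before it and 14.5 kb after it. Of all 140 kb stretches laid end to end along the chromosomes, gene windows included, 10.4% held at least 2 peaks. Just outside the window, a peak of height 18 lay 5.73 kb before its first base, and the next one after its end, 193 kb away, reached a height of 55.

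SLC2A3 had 1 peak in the 120 kb from 8.02 to 8.14 Mb on chromosome 12, at chr12:8123057-8123700, with a height of 21. It lay 43.4 kb after the middle of the window and 16.6 kb from its end. The next peak, also of height 21, lay 3.07 kb beyond that end, and the nearest on the other side was 434 kb before the window. At least 1 peak was found in 28.8% of all 120 kb stretches, so a single peak here is common in the list. In the order of RefSeq genes, SLC2A3 stands between SLC2A14, a closely similar transporter gene, and FOXJ2. How reads shared by SLC2A3 and SLC2A14 were treated is not stated in the labels, so counts where their sequences match are uncertain.

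HK2, the hexokinase, had no peak in its 170 kb window from 75 to 75.17 Mb on chromosome 2. The nearest peaks were 32 kb before the window, at chr2:74967650-74968597 with a height of 34, and 15.8 kb after it, at chr2:75185495-75186222 with a height of 19. Their summits were 218 kb apart. At least 1 peak was found in 37.1% of all 170 kb stretches, so an empty stretch of this length is the more frequent case.

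PFKFB3 was the glucose gene with most peaks, 4 in the 200 kb from 6.13 to 6.33 Mb on chromosome 10. The first, at chr10:6130512-6131111 with a height of 32, lay only 0.8 kb inside the window. The second followed at chr10:6161368-6161893, with a height of 21. The third lay at chr10:6244498-6245137, again with a height of 32, and the last at chr10:6317100-6317656 with a height of 20. Heights of 32 are exceeded by 18.5% of the list and those of 21 by 61.7%, so the gene had 2 peaks in the upper part of the list and 2 below its median. They were spread out, with 30.7 to 83.3 kb between neighbours. At least 4 peaks were found in 2.56% of all 200 kb stretches, and in 2.69% of those on chromosome 10. The count was 2 with the window 25 kb shorter at each end, and also 2 with only peaks higher than the list's median. The second setting keeps 45.5% of the list, so a drop is built into it. The surroundings were sparse: no peak lay within 465 kb before the window or 372 kb after it, and 4 of the 5 peaks within 500 kb of its middle were inside it. RBM17 and PRKCQ are the coding genes next to PFKFB3 in RefSeq order, and which gene a peak serves cannot be read from its position.

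SLC7A5, the leucine transporter gene, had the most peaks of the 7, with 5 in the 150 kb from 87.81 to 87.96 Mb on chromosome 16. Only 0.540% of all 150 kb stretches held at least 5 peaks, and on chromosome 16 it was 1 of 483 stretches. That chromosome was sparse in peaks, with 2.45 per Mb in all against 3.45 in the rest of the list. The stretches include the SLC7A5 locus, and whether that 1 stretch overlaps it was not examined. The count depended on the window and on the peaks used: it was 3 with the window 25 kb shorter at each end and 2 with only peaks higher than the list's median. That filter keeps 45.5% of the list, so a drop is built into it. No share of stretches was computed for either setting. The first peak lay at chr16:87812538-87813269 with a height of 22, and the second at chr16:87823362-87824022 with a height of 30. Peaks 3 and 4, at chr16:87839669-87840097 and chr16:87840163-87841126, had heights of 23 and 13. The fifth stood apart from the others, 63.9 kb further on, at chr16:87904160-87904733 with a height of 29. Peaks 1 to 4 thus formed a group in the lower-numbered part of the window, from 72.1 to 44.4 kb before its middle, and the fifth lay 19.4 kb after the middle.

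SLC7A5 peaks 3 and 4 adjoined each other. Their intervals were 65 bp apart and their summits 741 bp apart. Peak 4 was the lowest of the 14 peaks, with 97.0% of the list higher, and the widest, at 964 bp. Its summit is 1 of 69 in the list that lie neither on a multiple of 32 bp nor 16 bp from one, as the other summits do, and those 69 had a median height of 14. With the pair counted as 1, SLC7A5 had 4 peaks. The first SLC7A5 peak lay 2.9 kb inside the window. In RefSeq order the gene lies between KLHDC4 and CA5A, and peaks of heights 16 and 15 followed within 25 kb after the end of the window. Within 500 kb of the middle there were 10 peaks, 5 of them inside, and 4.10% of 1 Mb stretches held at least 10.

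SLC1A5, the glutamine transporter gene, had no peak in its 130 kb window from 47.22 to 47.35 Mb on chromosome 19, and 30.7% of such stretches held at least 1. This gap lay in a region dense in peaks. Within 500 kb of its middle there were 13 peaks, a number reached by 1.28% of 1 Mb stretches, and all 13 were outside the window. Of these, 3 lay before it, with heights from 18 to 22, and 10 after it, with heights from 22 to 49. The nearest was at chr19:47377290-47377810, 27.6 kb beyond the window, with a height of 29, and 273 kb separated its summit from the last one before the gene.

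SLC38A1 had 2 peaks in the 200 kb from 46.52 to 46.72 Mb on chromosome 12, and both were in the upper part of the list. The one at chr12:46613473-46614193 had a height of 32, and the one at chr12:46655369-46655926 a height of 31, which 20.8% of the list exceeded. Their summits were 41.7 kb apart, 6.2 kb before and 35.6 kb after the middle of the window. No peak of the window was lower than the list's median, which among the 5 genes with peaks held for SLC38A1 alone. At least 2 peaks were found in 16.1% of all 200 kb stretches. Here too the region was dense, with 13 peaks within 500 kb of the middle, 11 of them outside the window at heights from 14 to 43. SLC38A2, a related amino acid transporter gene, is the next coding gene after SLC38A1 in RefSeq order.

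**Figure D2:**
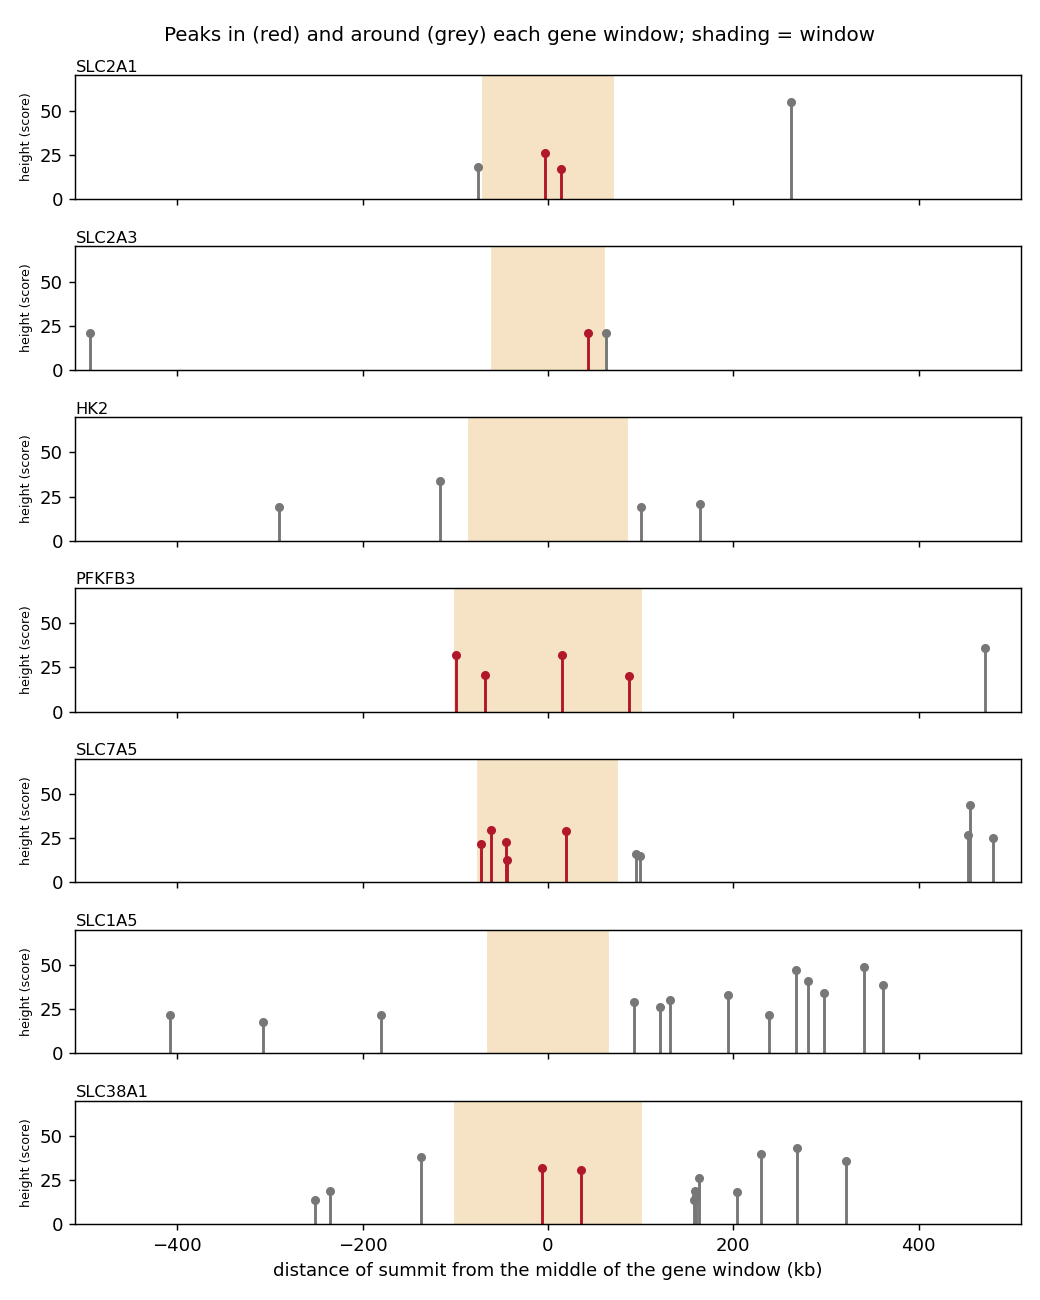
Each row shows 1 gene, with peak summits within 500 kb of the middle of its window placed by their distance from it in kb and drawn to their height (the authors' score). Peaks inside the shaded window are red and those outside grey. PFKFB3 has 4 red peaks and 1 grey one, SLC7A5 has 5 of each, and HK2 and SLC1A5 have no red peak but 4 and 13 grey ones.

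The peaks of these genes were of ordinary size for the list. Their heights ran from 13 to 32 with a median of 24.5, for which the exact order-statistic interval at 95% was 20 to 32, against a median of 24 and an interquartile range of 19 to 30 in the other 9379 peaks. The difference of medians, 0.5, was smaller than the spread of either set: the mean was 24.9 ± 6.22 (SD over 14 peaks) near these genes and 25.8 ± 9.61 (SD over 9379 peaks) elsewhere. Peaks higher than the list's median numbered 7 of 14, with an exact binomial interval of 23.0% to 77.0%, against 45.5% of the list. None of the 14 reached a height of 40, which 8.67% of the list did. With 14 peaks, the exact binomial upper limit for that share is 23.2%, so the count is too small to set this share apart from that of the list. By nutrient, the 7 peaks of the glucose genes had a median height of 21 and those of the amino acid transporters 29, with ranges of 17 to 32 and 13 to 32 that overlapped almost entirely.

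Widths were also ordinary. The 14 peaks were 429 to 964 bp wide with a median of 626.5 bp, against a median of 611 bp in the rest, and 10 of the 14 lay within the interquartile range of the rest, 520 to 709 bp. The narrowest and the widest were the adjoining peaks 3 and 4 of SLC7A5. Together the peaks covered 0.803% of the windows, against 0.221% of the length outside them. As widths were alike, this contrast restates the density of peaks and is not a separate result. The adjoining SLC7A5 pair, 2 of 14 peaks, had another summit within 10 kb, against 19.6% of the rest, a count too small to set the shares apart. Within 50 kb, 11 of 14 had one, against 47.7% of the rest. Windows with several peaks in at most 200 kb make such neighbours likely, so the 50 kb share is not separate from the counts.

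**Figure D3:**
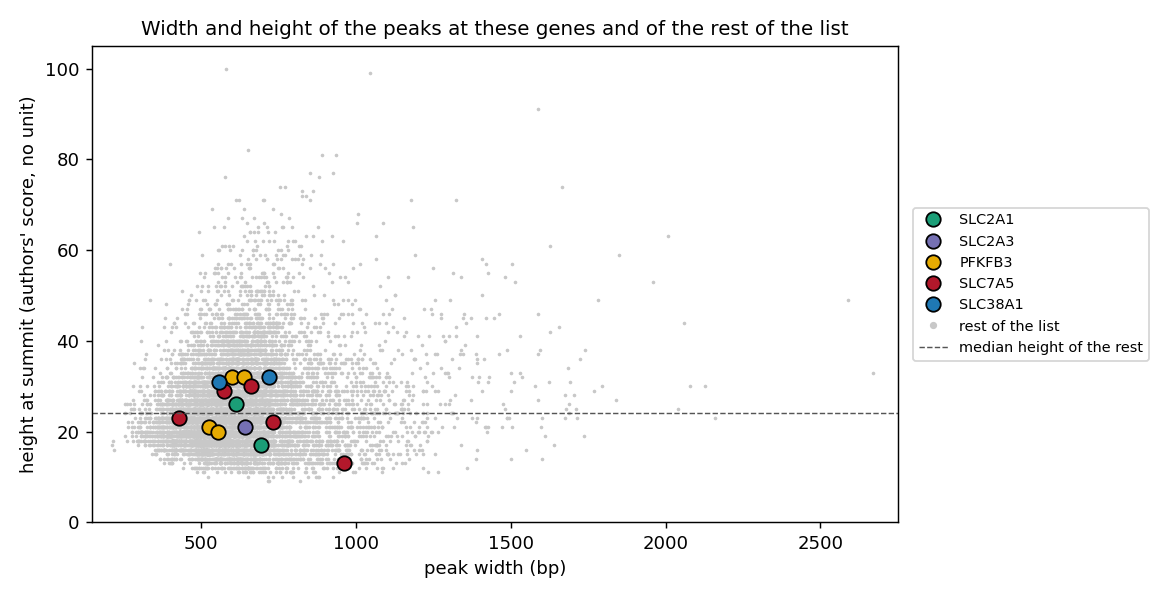
Width (bp) against height (the authors' score) for the 14 peaks, coloured by gene, and for the rest of the list in grey, with the median height of the rest as a dashed line. The 14 lie between heights of 13 and 32. The widest of them, at 964 bp near SLC7A5, is also the lowest and lies near the lower edge of the list, with 97.0% of the list higher.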

How the data were processed

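Flag-YAP-5SA chromatin from MCF10A cells was sequenced as 1 ChIP library beside 1 input library. Per the submitters' processing notes, BWA 0.6.1 and MACS were used with hg19. Version and threshold of MACS and its use of the input are not stated. Per the file headers, the deposited file has a summit track with a score per peak and an interval track, which were joined by order. The score, called height, has no stated unit. It served only for description and ranking within the list, without correction for DNA copy number. Read depth is unknown, so only counting intervals at the 95% level were computed. All of them, that of the median height included, treat peaks as independent.

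A peak belonged to a gene if its summit lay in the gene's hg19 window. All 7 genes are named. Genes, windows and motifs were chosen with earlier results of these data known. Length outside the windows was the distance between the first and last summit of each chromosome less its longest stretch without a peak. Stretches equal to each window in length were laid end to end over the same span, leaving out those wholly inside that gap. Window counting, merging and tiling were tested on simulated data. Other glycolysis and transport genes, exons and start sites need an hg19 annotation and were not analysed here. RefSeq supplied gene order and promoters (GRCh38.p14). Starts of intervals are 1-based. Python 3.11.15 was used, with the packages scipy 1.17.1, pandas 2.3.3, numpy 2.4.6 and matplotlib 3.10.9. Alternatives changed the peaks used, the windows, the merging of close peaks and the length outside the windows.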

Additional observations from a re-analysis of the deposited data

How the results depend on the processing

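No paired analysis was possible because the only ChIP library has no replicate, and for the same reason none could be left out. The 14 peaks became 7 when only peaks higher than the list's median were kept and 9 with windows 25 kb shorter at each end. The first of these settings keeps 45.5% of the list, so a drop is built into it. The count was 13 with peaks under 200 bp apart merged, 19 with windows 25 kb longer and 14 when any overlap of interval and window counted. The density ratio of 3.66 ranged from 3.42 to 3.91 when peaks, windows, merging, length or the chromosomes of the rest were changed. Leaving out windows was chosen after seeing the data. Each in turn gave 2.72 (without SLC7A5) to 4.32 (without HK2), and SLC7A5 and PFKFB3 together gave 1.91. No intervals were computed for these ratios. The difference of median heights was 0.5, 2.0 with merging or shorter windows and -3.0 with longer ones, so its sign is not fixed. SLC2A3 lost its peak in the shorter window, and HK2 gained 1 in the longer. PFKFB3 had 2 and SLC7A5 3 peaks in the shorter windows. SLC1A5 had none in the longer window, where the nearest summit was 27.6 kb beyond the original window, and none by interval overlap. The other alternatives for its count could not add a peak. Shifting the stretches, also chosen after seeing the data, gave 0.469% for SLC7A5 and 2.45% for PFKFB3. Promoter matches had no alternative. Unknown depth and the single library limit every value.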
